A study of Rattus norvegicus with 16 samples.

Results

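The aryl hydrocarbon receptor battery is taken here as 7 genes whose transcription is a standard readout of that receptor in rodent tissue: Cyp1a1, Cyp1a2, Cyp1b1, Ahrr, Nqo1, Ugt1a6 and Aldh3a1. They were picked by gene symbol, current or older, with no measured value in the rule, and they are 7 of the 14839 genes named on the array. Earlier results of these data were known when they were picked. They hold 63 of the 177688 probe sets that the array annotation pairs with 1 gene symbol. All 7 genes had at least 1 probe set bright enough for the test, and 29 of the 63 probe sets passed that brightness filter.

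The aryl hydrocarbon receptor (AhR) is a transcription factor that rests in the cytosol and moves to the nucleus when it binds a ligand, typically a flat aromatic compound such as a dioxin or a polycyclic hydrocarbon. There it pairs with Arnt and binds short DNA elements with the core GCGTG beside its target genes. In rat liver the best known of these are the P450 enzymes Cyp1a1, nearly silent until induced, and Cyp1a2, which hepatocytes make constitutively, followed by conjugating and reducing enzymes that handle the oxidised products.

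Liver RNA came from female Sprague-Dawley rats of 5 weeks of age on a 4% Teklad mash diet, either plain (Control) or with UAB30 at 200 ppm, 4-methyl-UAB30 (MeUAB30) at 200 ppm or Targretin (bexarotene) at 150 ppm. All of them are ligands that activate RXR, the retinoid X receptor of the nuclear receptor family, and MeUAB30 differs from UAB30 by the methyl group in its name. The supplemented diets lasted 7 days; the labels give no period for the plain diet. Every group had 4 exon arrays, 16 in all, and the 3 comparisons with Control use the same 4 Control arrays. UAB30 and MeUAB30 were fed at equal dose and were compared by test, whereas Targretin values are set beside those of the analogs without one. No label says that each array is a separate animal, so p-values reflect array-to-array spread that may be technical, and the number of arrays limits the precision.

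Values are log2(intensity + 1), here log2 intensity, and a difference of 1 is a doubling. The median intensity was 22.2 to 23.8 per array. In each group 1 array correlated least with its group mates: Control 3, UAB30 3, MeUAB30 1 and Targretin 2, with a mean correlation of 0.925 to 0.963. The liver label was checked with hepatocyte markers, which were bright in every group: the mean log2 intensity over the 8 measured of 10 hepatocyte markers was 13.25 to 13.32 in Control, 13.22 to 13.30 in UAB30, 13.07 to 13.12 in MeUAB30 and 13.10 to 13.29 in Targretin arrays. A gene is said to have risen or fallen where the limma test over all 12156 genes gave a Benjamini-Hochberg adjusted p under 0.05. An adjusted p below comes from that test unless it is given for single probe sets, another setting or a fit without some arrays. Those come from limma fits of their own, each with its own adjustment. RNA was taken from whole liver, so a change in RNA per cell and a change in the number of cells of a type cannot be told apart.

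With UAB30 the Cyp1 family and 2 enzymes of the later steps stood above Control. Cyp1a1 rose 53.8-fold, Nqo1 2.52-fold, Ugt1a6 1.98-fold and Cyp1a2 1.98-fold; Cyp1b1 stood 2.90-fold higher and missed the threshold; Ahrr and Aldh3a1 did not pass. Thus 4 of 7 genes rose and 0 fell, where 0.074% of the 12156 genes rose (9 genes) and 0.00823% fell (1 gene). The median log2 difference was 0.99 over the 7 genes and 0.05 over all genes. At an unadjusted p under 0.05 the comparison held 952 genes.

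MeUAB30 at the same dose gave a different set. Nqo1 rose 2.97-fold, while Cyp1a2 fell to a level 1.84-fold lower and Ugt1a6 to a level 1.56-fold lower; Cyp1a1 did not pass. The count was 1 higher and 2 lower of 7 genes, where 7.88% of all genes rose and 2.01% fell (958 and 244 genes). The median log2 difference was -0.22 over the 7 genes and 0.06 over all genes.

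With Targretin at 150 ppm 0 of the 7 genes passed in either direction, where 1.51% of all genes rose and 0.666% fell (184 and 81 genes by limma; 1326 in both directions at an unadjusted p under 0.05). The median log2 difference was 0.11 over the 7 genes and -0.01 over all genes. Between the analogs at equal dose, 4 of the 7 genes were lower with MeUAB30 than with UAB30 and 0 were higher, where 0.691% of all genes were lower and 0.699% higher. These 4 were Cyp1a1, Cyp1a2, Cyp1b1 and Ugt1a6, and the median log2 difference of MeUAB30 minus UAB30 was -1.60 over the 7 genes and 0.02 over all genes.

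**Figure D1:**
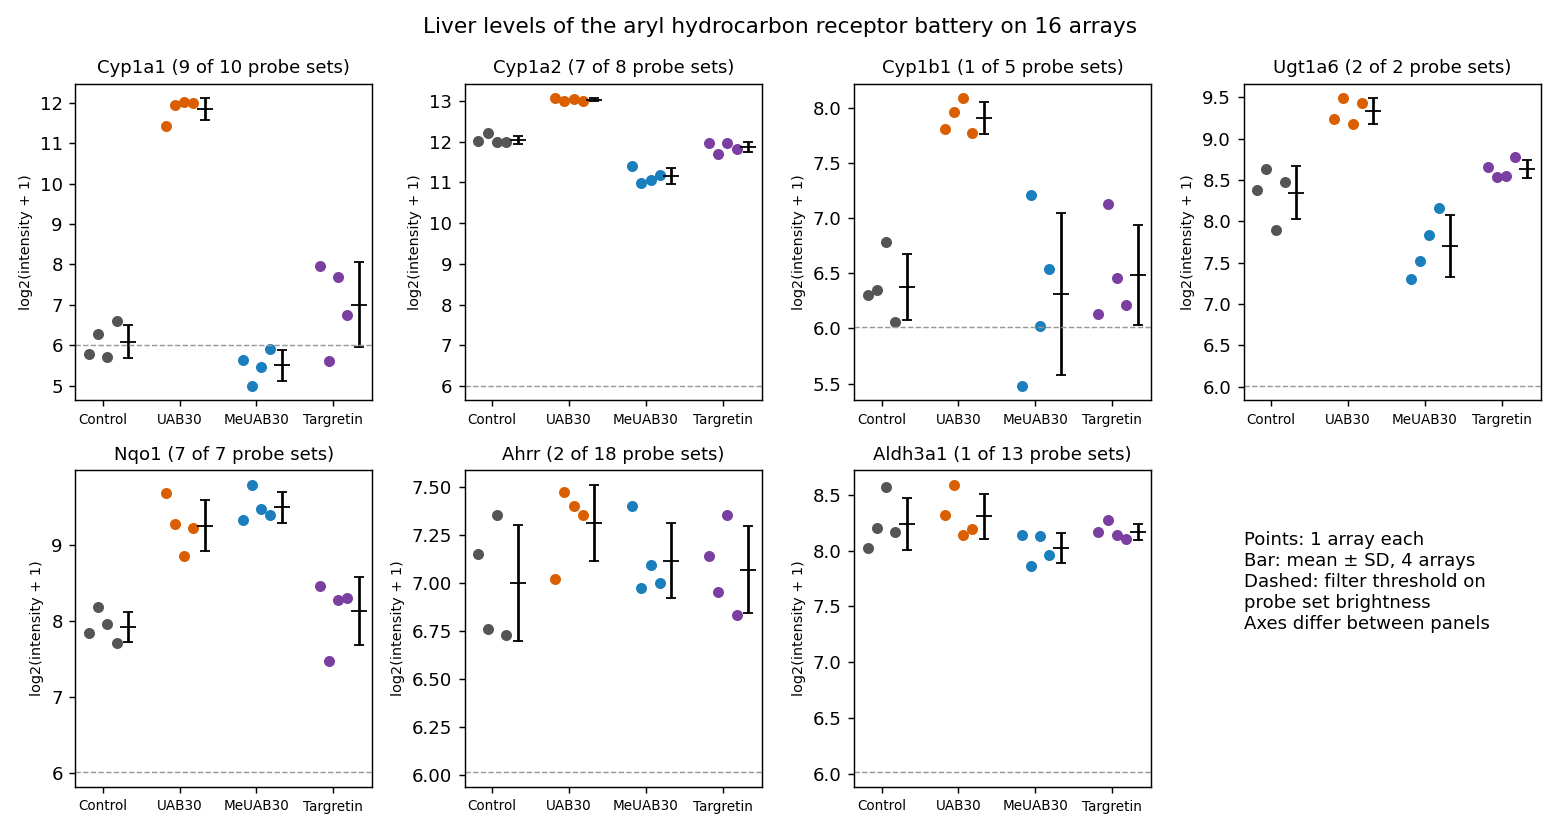
Log2 intensity of the 7 genes on every array, 4 arrays a diet, with the mean ± SD of each diet beside the points and the brightness threshold of 6.01 as a dashed line; the axes differ between genes. The 4 UAB30 points of Cyp1a1 lie between 11.43 and 12.01 and all other arrays at or below 7.97; for Nqo1 both UAB30 and MeUAB30 points lie above all 4 Control points.

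Cyp1a1, the P450 that oxidises polycyclic aromatic hydrocarbons, had log2 intensities of 5.79, 6.28, 5.71 and 6.59 in the Control arrays and of 11.43, 11.94, 12.01 and 11.98 in the UAB30 arrays. The MeUAB30 arrays read 5.63, 5.00, 5.47 and 5.91, and the Targretin arrays 7.97, 5.62, 7.68 and 6.76. All UAB30 arrays were far above the other 12, the MeUAB30 arrays were all under the brightness threshold of 6.01, and Targretin spread widely around and above the Control range. The means were 6.09 ± 0.42 in Control, 11.84 ± 0.27 in UAB30, 5.50 ± 0.38 in MeUAB30 and 7.01 ± 1.06 in Targretin (SD, n = 4 each).

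The log2 difference between UAB30 and Control was 5.75 (SE 0.37, 95% confidence interval 4.97 to 6.53, adjusted p = 1.64e-07), the first of all 12156 genes both by size and by p. Since 2 Control arrays lay under the brightness threshold, the fold is uncertain; the 3 probe sets above the threshold in every diet gave 26.6 to 58.7-fold. MeUAB30 stood 81.0-fold lower than UAB30 (95% interval 47.1 to 139.5-fold, adjusted p = 3.29e-08). All 4 MeUAB30 arrays were under the threshold, and the same 3 probe sets gave 31.7 to 113.9-fold. These 3 were picked by diet means, and the probe set with 113.9-fold read 4.62 on MeUAB30 2. The lowest folds, 26.6 and 31.7, came from a probe set that read 7.40 or more on every array. MeUAB30 minus Control was -0.59 on the log2 scale (95% interval -1.38 to 0.19, adjusted p = 0.381).

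The Targretin values of Cyp1a1 were the least uniform of any diet. Targretin minus Control was 0.92 on the log2 scale (SE 0.37, 95% interval 0.13 to 1.70, adjusted p = 0.326), with Targretin 1, 3 and 4 above all Control arrays and Targretin 2 below all of them. Targretin 2 is the array that correlated least with its group. Without it the difference was 1.38 and passed (adjusted p = 0.0105), and without the 4 arrays of lowest correlation it was 1.25 (adjusted p = 0.0439). Set beside it at a different dose, UAB30 stood at 11.84.

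All 10 probe sets of Cyp1a1 were higher with UAB30 than in Control, by 4.74 to 6.54 on the log2 scale with a median of 5.79. Each of the 10 passed in a limma test of all 177688 named probe sets without a brightness filter, where 0.0152% were called higher (27 probe sets). The same 10 were lower with MeUAB30 than with UAB30, by -4.99 to -7.33, where 0.183% of probe sets were called lower. Of the 9 probe sets kept for the gene value, 3 had a Control mean and 6 a MeUAB30 mean under the threshold, so those entered through the diets where they are high.

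Cyp1a2, the constitutive hepatocyte P450 that metabolises caffeine and aromatic amines, was bright on every array. It read 12.01, 12.20, 11.98 and 11.98 in Control, 13.07, 13.00, 13.05 and 13.00 in UAB30, 11.41, 10.98, 11.05 and 11.19 in MeUAB30 and 11.97, 11.70, 11.97 and 11.82 in Targretin. UAB30 arrays were all above Control and MeUAB30 arrays all below it, without overlap, where 2.58% and 2.78% of all genes had these separations. The Targretin arrays also lay below Control, as did those of 2.34% of all genes, but the nearest values, 11.97 and 11.98, were closer than the spread within either group.

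UAB30 raised Cyp1a2 by 0.99 on the log2 scale (SE 0.12, 95% interval 0.74 to 1.23, adjusted p = 0.000559; means 12.04 ± 0.11 and 13.03 ± 0.03, SD, n = 4 each). MeUAB30 lowered it: the log2 difference from Control was -0.88 (SE 0.12, 95% interval -1.13 to -0.64, adjusted p = 0.000166). At equal dose the analogs moved this gene in opposite directions from Control, and MeUAB30 stood 3.66-fold below UAB30 (95% interval 3.08 to 4.34-fold, adjusted p = 4.41e-08), second by p among all genes in that comparison. Targretin minus Control was -0.18 (95% interval -0.42 to 0.07, adjusted p = 0.691).

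Among the 8 probe sets of Cyp1a2, 7 were lower with MeUAB30 than in Control, and each of the 7 passed at the probe set level, where 0.771% of probe sets were called lower. The remaining one was a dim probe set with means of 6.20 in Control, 6.28 in UAB30, 6.20 in MeUAB30 and 5.99 in Targretin. With UAB30 all 8 were above Control, by 0.08 to 1.84 on the log2 scale, and 2 of 8 passed, where 0.0152% of probe sets were called higher. The calls of Cyp1a1 and Cyp1a2 named so far held under all 10 other settings and in all 16 fits without 1 array, Targretin apart. Of the 8 hepatocyte markers 2 also fell with MeUAB30 and 0 rose, where 2.01% of all genes fell (median -0.14, against 0.06 over all genes). Cyp1a2 is highest in pericentral hepatocytes. The mean log2 intensity over 6 of 8 pericentral markers was 9.12 to 9.74 in Control, 9.33 to 9.54 in UAB30 and 9.32 to 9.52 in MeUAB30 arrays. Of these 6, 1 rose and 1 fell with MeUAB30 against Control, where 7.88% and 2.01% of all genes did. Between the analogs 1 was higher and 1 lower with MeUAB30, where 0.699% and 0.691% of all genes were. Over 8 periportal markers the mean was 10.22 to 10.38 in Control, 10.39 to 10.64 in UAB30 and 10.21 to 10.41 in MeUAB30 arrays. Their median log2 difference of MeUAB30 minus UAB30 was -0.27, against 0.02 over all genes. Of these 8, 0 passed with UAB30 or between the analogs. With MeUAB30 against Control 1 rose and 1 fell, where 7.88% and 2.01% of all genes did. Opposite changes can cancel in such a mean. The part of these markers in the Cyp1a2 change was not tested.

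**Figure D2:**
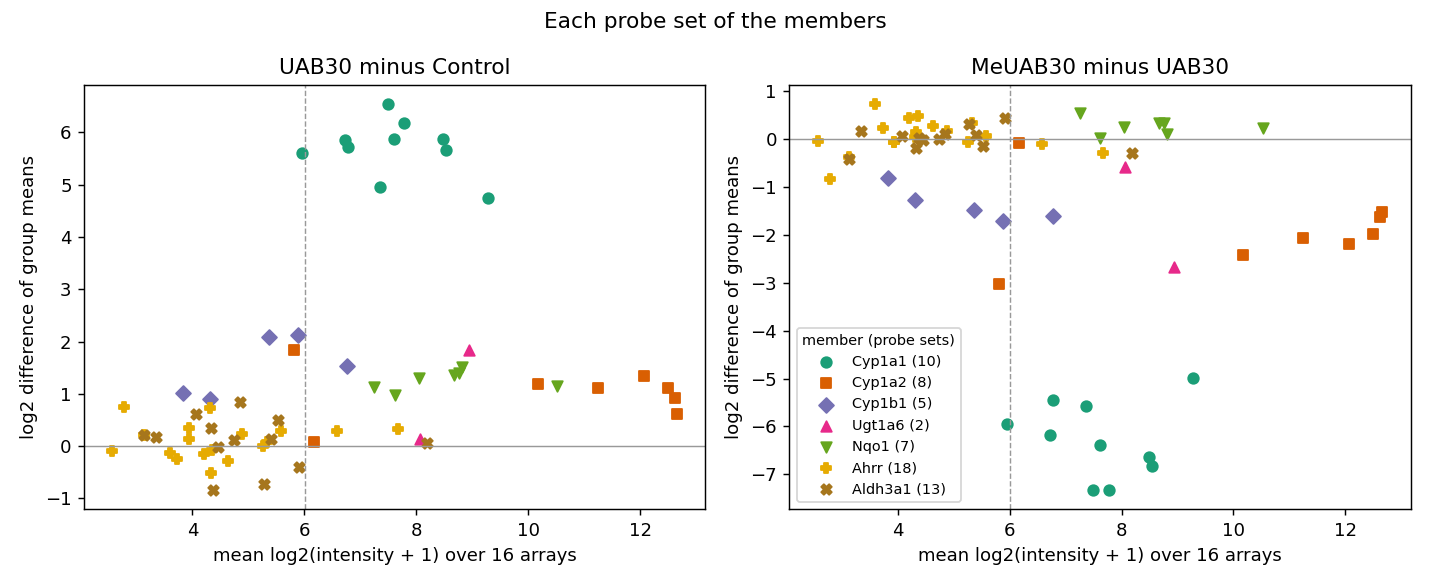
Each of the 63 probe sets, by gene, with its mean log2 intensity over the 16 arrays on the x axis and the log2 difference of UAB30 minus Control (left) or MeUAB30 minus UAB30 (right) on the y axis; the dashed line is the brightness threshold. The 10 Cyp1a1 probe sets lie between 4.74 and 6.54 on the left, whereas those of Ahrr and Aldh3a1 scatter on both sides of 0 in both panels.

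Cyp1b1, the P450 that hydroxylates estradiol and many procarcinogens, was dim in these livers and rested on 1 of its 5 probe sets in the gene value. It read 6.30, 6.35, 6.78 and 6.06 in Control, 7.81, 7.96, 8.09 and 7.77 in UAB30, 5.48, 7.21, 6.02 and 6.54 in MeUAB30 and 6.13, 7.13, 6.46 and 6.21 in Targretin. The UAB30 arrays lay above the other 12 arrays, which overlapped one another. UAB30 minus Control was 1.54 on the log2 scale (SE 0.29, 95% interval 0.93 to 2.14, adjusted p = 0.0519), just outside the threshold.

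With all 5 Cyp1b1 probe sets and no filter the difference was 1.63 (3.09-fold, adjusted p = 0.000225), where 0.0607% of genes were called higher in that fit. All 5 probe sets were higher with UAB30, by 0.90 to 2.12, and 1 of them passed, where 0.0152% of probe sets were called higher. The probe set that passed had means of 4.55 in Control and 6.62 in UAB30 and exceeded the brightness threshold only with UAB30. Another, at 5.20 and 7.32, did the same, and 2 of the 5 were under the threshold in every diet. The fit without a filter thus draws on dim probe sets. MeUAB30 stood 3.03-fold below UAB30 (95% interval 1.99 to 4.60-fold, adjusted p = 0.0063), and that call held under every alternative. Neither MeUAB30 (log2 difference -0.06, 95% interval -0.67 to 0.54, adjusted p = 0.936) nor Targretin (0.11, adjusted p = 0.961) passed against Control. Stellate cells are a known hepatic source of Cyp1b1; the mean log2 intensity over 9 of 12 stellate cell and fibroblast markers was 7.69 to 8.19 in Control and 7.85 to 7.90 in UAB30 and 7.999 to 8.083 in MeUAB30 arrays. With UAB30 0 of the 9 passed against Control, where 0.074% of all genes rose. With MeUAB30 1 of the 9 was higher than in Control, where 7.88% of all genes were. Between the analogs 1 of the 9 was higher with MeUAB30, where 0.699% of all genes were. The part of these markers in the Cyp1b1 values was not tested.

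Ahrr, the repressor that AhR induces and that competes with it for Arnt, was dim in most of its 18 probe sets. Its 2 kept probe sets gave 7.15, 6.76, 7.35 and 6.73 in Control and 7.02, 7.47, 7.40 and 7.35 in UAB30, with the ranges overlapping. The log2 difference was 0.31 (95% interval -0.03 to 0.66, adjusted p = 0.68), and the MeUAB30 and Targretin arrays lay between 6.83 and 7.40. Of its 18 probe sets 16 were under the threshold in every diet, and with UAB30 10 were above and 8 below Control with 0 passing; its level over all 18 probe sets, 4.25 to 4.61 on the 16 arrays, was not shown to be above background.

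Nqo1, the quinone reductase that is driven both by AhR and by the stress sensor Nrf2, was the member that rose with both analogs. It read 7.84, 8.18, 7.96 and 7.71 in Control, 9.68, 9.27, 8.85 and 9.22 in UAB30 and 9.33, 9.79, 9.47 and 9.39 in MeUAB30. The 8 analog arrays were all above the 4 Control arrays and overlapped each other. Over all genes, 2.58% had all UAB30 arrays above Control and 11.7% had all MeUAB30 arrays above it. The Targretin arrays, at 8.46, 7.47, 8.28 and 8.30, overlapped Control.

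The log2 difference of Nqo1 from Control was 1.33 with UAB30 (SE 0.20, 95% interval 1.87 to 3.39-fold, adjusted p = 0.00978) and 1.57 with MeUAB30 (SE 0.20, 95% interval 2.21 to 4.01-fold, adjusted p = 0.000147). MeUAB30 minus UAB30 was 0.24 with a 95% interval of -0.19 to 0.67 (adjusted p = 0.753), an interval that does not show the analogs to act alike on this gene. The UAB30 call was lost without Control 1 (adjusted p = 0.0506), Control 4 (0.0606) or UAB30 1 (0.0609); the MeUAB30 call held throughout. All 7 probe sets were higher with each analog, by 0.98 to 1.51 with UAB30 and 1.01 to 1.75 with MeUAB30; 1 and 6 of them passed, where 0.0152% and 1.87% of probe sets were called higher. Targretin minus Control was 0.20 (95% interval -0.23 to 0.63, adjusted p = 0.859). The mean log2 intensity over 10 of 12 Kupffer cell and macrophage markers was 7.74 to 8.75 in Control, 8.34 to 9.04 in UAB30, 8.53 to 8.81 in MeUAB30 and 7.64 to 8.75 in Targretin arrays. Their median log2 difference from Control was 0.44 with UAB30, 0.57 with MeUAB30 and 0.08 with Targretin. Over all genes it was 0.05, 0.06 and -0.01. With each diet 0 of the 10 passed, where 0.074%, 7.88% and 1.51% of all genes rose. The part of these markers in the Nqo1 result was not tested.

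Ugt1a6, which glucuronidates small planar phenols, was read by 2 probe sets, and part of its exons is common to all Ugt1a genes, which makes its value uncertain. It read 8.38, 8.63, 7.89 and 8.48 in Control, 9.24, 9.49, 9.17 and 9.43 in UAB30, 7.30, 7.52, 7.84 and 8.16 in MeUAB30 and 8.66, 8.54, 8.55 and 8.78 in Targretin. UAB30 arrays stood above all others, and MeUAB30 arrays overlapped the lowest Control array. UAB30 minus Control was 0.99 (SE 0.18, 95% interval 0.61 to 1.36, adjusted p = 0.0394), MeUAB30 minus Control -0.64 (95% interval -1.01 to -0.26, adjusted p = 0.0299) and Targretin minus Control 0.29 (adjusted p = 0.659).

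Both Ugt1a6 calls against Control were weak. The UAB30 call was lost in 11 of 16 fits without 1 array (any UAB30 array, Control 1, 3 or 4, MeUAB30 3, or Targretin 1, 3 or 4; adjusted p up to 0.149), and the MeUAB30 call without Control 1, 2 or 4 or MeUAB30 1, 2 or 3 (up to 0.0939). The difference between the analogs, 3.09-fold lower with MeUAB30 (95% interval 2.38 to 4.01-fold, adjusted p = 4.75e-05), held in all of them. The 2 probe sets disagreed: between the analogs one differed by -2.67 on the log2 scale and passed and the other by -0.58 (adjusted p = 0.345), and neither passed for MeUAB30 against Control (0.114 and 0.271). With UAB30 the first went from 8.58 in Control to 10.43 in UAB30, a log2 difference of 1.84 that passed, and the second from 8.10 to 8.24, a difference of 0.13 that did not.

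Aldh3a1, an aldehyde dehydrogenase that dioxins induce in rat liver, passed in no comparison. Its 1 kept probe set read 8.02, 8.20, 8.57 and 8.17 in Control and 8.32, 8.59, 8.14 and 8.19 in UAB30, and the groups overlapped. The log2 difference was 0.07 (95% interval -0.21 to 0.35, adjusted p = 0.935), with -0.22 for MeUAB30 (adjusted p = 0.37) and -0.07 for Targretin (adjusted p = 0.943). Of its 13 probe sets 11 were under the threshold in every diet, and over all 13 the gene value lay between 4.42 and 5.10 on the 16 arrays, so the kept probe set stood apart from the others and the gene's own level was not shown to be above background. MeUAB30 minus UAB30 was -0.29 for Aldh3a1 (95% interval -0.57 to -0.0029, adjusted p = 0.435) and -0.19 for Ahrr (95% interval -0.54 to 0.15, adjusted p = 0.75).

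**Figure D3:**
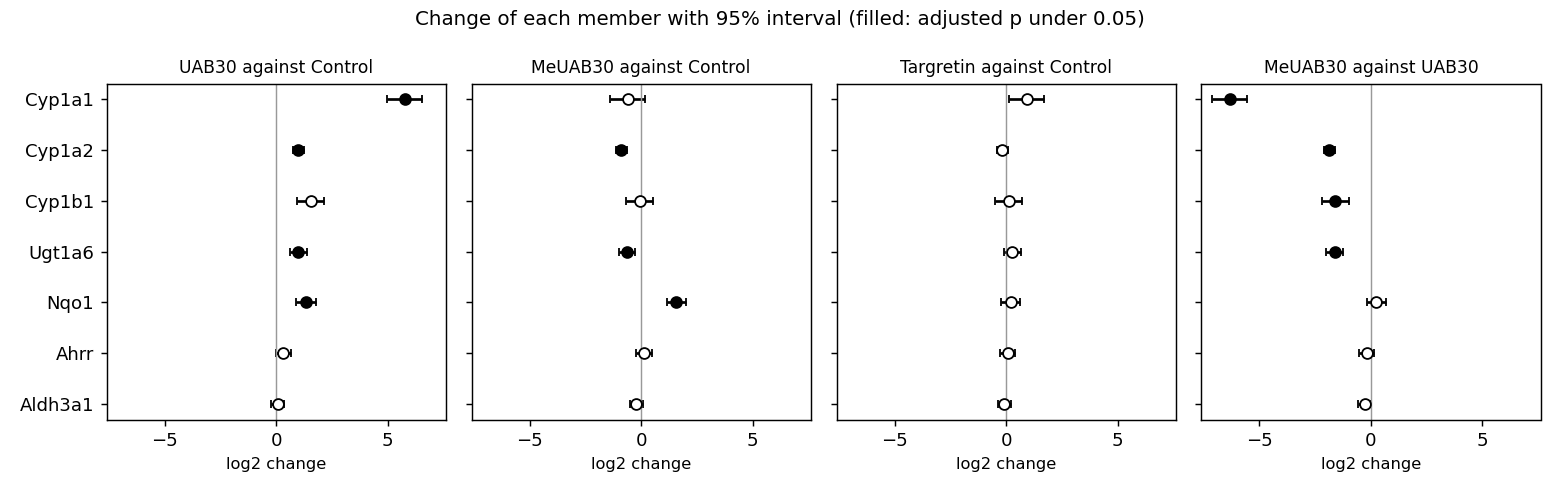
Log2 difference of each of the 7 genes in the 3 comparisons with Control and between the analogs, with 95% confidence intervals from the limma fit; filled points passed the adjusted threshold. Against Control, Cyp1a2 and Ugt1a6 lie to the right of 0 with UAB30 and to the left with MeUAB30, while Nqo1 lies to the right with both.

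Array by array, all 4 UAB30 arrays lay above all 4 Control arrays for 5 of the 7 genes (Cyp1a1, Cyp1a2, Cyp1b1, Nqo1 and Ugt1a6), where 2.58% of all genes had this separation. All 4 MeUAB30 arrays lay below all 4 UAB30 arrays for 4 of the 7 (Cyp1a1, Cyp1a2, Cyp1b1 and Ugt1a6), where 3.64% of all genes did. Against Control, the MeUAB30 arrays all lay above for 1 of the 7 (Nqo1), where 11.7% of all genes did. They all lay below for 1 (Cyp1a2), where 2.78% did.

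The bases before the start site were examined because 4 members moved together between the analogs and the DNA element of the receptor is known. RefSeq promoter sequences of assembly GRCr8 were found for 5 of the 7 genes, all but Cyp1a1 and Aldh3a1. Shown are the 250 bases before the start of the 4 genes that passed against Control in at least one diet or between the analogs, 5′ to 3′ on the gene's strand, with capitals for GCGTG or, for the other strand, CACGC. Cyp1a2 is at chr8:66978150-66978399 (minus strand), Cyp1b1 at chr6:21094315-21094564 (plus), Ugt1a6 at chr9:96194768-96195017 (plus) and Nqo1 at chr19:52220268-52220517 (minus).
Cyp1a2: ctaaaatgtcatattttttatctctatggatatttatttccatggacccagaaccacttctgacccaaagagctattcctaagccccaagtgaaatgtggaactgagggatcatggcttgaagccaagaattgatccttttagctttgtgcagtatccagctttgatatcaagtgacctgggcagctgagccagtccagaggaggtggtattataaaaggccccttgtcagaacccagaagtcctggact
Cyp1b1: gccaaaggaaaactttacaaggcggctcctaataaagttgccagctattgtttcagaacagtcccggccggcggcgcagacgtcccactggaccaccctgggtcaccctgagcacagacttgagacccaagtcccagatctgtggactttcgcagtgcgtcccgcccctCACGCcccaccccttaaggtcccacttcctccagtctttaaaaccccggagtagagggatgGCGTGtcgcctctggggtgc
Ugt1a6: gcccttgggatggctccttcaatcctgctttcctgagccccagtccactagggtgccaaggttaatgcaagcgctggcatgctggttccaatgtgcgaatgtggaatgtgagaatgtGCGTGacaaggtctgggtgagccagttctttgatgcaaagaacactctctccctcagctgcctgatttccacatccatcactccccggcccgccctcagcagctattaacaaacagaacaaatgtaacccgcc
Nqo1: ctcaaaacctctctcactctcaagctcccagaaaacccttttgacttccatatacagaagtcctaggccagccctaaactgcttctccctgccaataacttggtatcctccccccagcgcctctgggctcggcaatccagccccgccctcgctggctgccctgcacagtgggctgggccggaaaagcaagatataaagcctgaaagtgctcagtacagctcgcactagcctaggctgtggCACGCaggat

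Within these windows the core GCGTG, searched on both strands, was found in 4 of the 5 promoters and in 25.9% of all 33465 promoters of the same length. That share was not matched for GC content. The GC content was 59.2% in Cyp1b1, 62% in Ahrr, 56.4% in Nqo1, 53.6% in Ugt1a6 and 44% in Cyp1a2. Its median over all promoters was 51.2%. Cyp1b1 held 2 copies, whose first bases lie 81 and 20 bases before the start, and the second is also a TNGCGTG, a longer form found in 4.09% of promoters. Ugt1a6 held 1 copy 133 bases before the start and Nqo1 1 copy 10 bases before it. Ahrr, not printed since it passed in no comparison, held 3 copies of GCGTG and 1 of TNGCGTG. Cyp1a2, held none in this window, and TGACNNNGC, the core of the antioxidant element that Nrf2 binds, was in none of the 5 and in 10.1% of all promoters. A match is only a match of letters, and its absence says nothing of elements farther away. In the assembly Cyp1a1 and Cyp1a2 are immediate neighbours on chromosome 8.

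The receptor itself was measured too. Ahr read 9.08, 9.47, 8.46 and 9.04 in Control, 9.49, 9.39, 9.65 and 9.48 in UAB30, 8.71, 8.60, 8.44 and 8.67 in MeUAB30 and 9.72, 9.02, 9.59 and 9.28 in Targretin. The UAB30 arrays were all above the MeUAB30 arrays, and Control spanned the gap between them. Ahr fell by 0.89 on the log2 scale in MeUAB30 relative to UAB30 (SE 0.18, 95% interval -1.28 to -0.51, adjusted p = 0.0177), a call that was lost without UAB30 3, UAB30 4, MeUAB30 2 or MeUAB30 3 (adjusted p up to 0.0777).

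Against Control, Ahr did not pass with any diet: the log2 difference was 0.49 with UAB30 (adjusted p = 0.512), -0.41 with MeUAB30 (0.193) and 0.39 with Targretin (0.457). Its partner Arnt had means of 9.31 ± 0.34, 9.11 ± 0.28, 8.89 ± 0.27 and 9.10 ± 0.26 (Control, UAB30, MeUAB30 and Targretin; SD, n = 4 each) and passed in no comparison. Of 7 measured members of the receptor complex, 0 passed against Control with any diet, and Ahr was the 1 of 7 that passed between the analogs (median -0.22, against 0.02 over all genes). Over all genes 0.074% rose with UAB30, 7.88% with MeUAB30 and 1.51% with Targretin, while 0.00823%, 2.01% and 0.666% fell. Between the analogs 0.691% of all genes were lower with MeUAB30 and 0.699% higher. At such shares few calls arise among 7 genes, so the count of 0 says little about the complex.

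In the gene lists that follow, counts with UAB30 stand against 0.074% of all genes higher, so that a count of 0 says little about a list. Counts with MeUAB30 stand against 7.88% of all genes higher and 2.01% lower, and those with Targretin against 1.51% and 0.666%. Between the analogs 0.699% of all genes were higher and 0.691% lower with MeUAB30. The lists were chosen with earlier results of these data known, so their counts only describe. Of other genes reported to respond to AhR, 13 measured of 20 listed, 1 rose and 0 fell with UAB30 (median 0.30, against 0.05 over all genes). The 1 was Bhlhe40, a clock repressor (2.09-fold, adjusted p = 0.0241), a call lost without Control 3, Control 4 or any UAB30 array. It also rose with MeUAB30 (2.60-fold, adjusted p = 0.000166), where the fatty acid carrier Cd36 (2.13-fold, adjusted p = 0.00194) and the glutathione transferase Gsta2 (1.74-fold, adjusted p = 0.0387) rose as well and 0 fell (median -0.09). With Targretin the same 3 genes passed, Cd36 at 2.12-fold, Gsta2 at 2.17-fold and Bhlhe40 at 1.68-fold (adjusted p = 0.00372, 0.0141 and 0.0373; median 0.14). Between the analogs 0 of the 13 passed (median -0.14).

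The Gsta2 calls were lost without any MeUAB30 array, Control 1, 3 or 4 or UAB30 2 for MeUAB30, and without Control 1 or Targretin 3 for Targretin. The Bhlhe40 call with Targretin was lost in 10 of the 16 fits without 1 array (Control 2, 3 or 4, UAB30 1, 2 or 4, MeUAB30 3, or Targretin 1, 3 or 4; adjusted p up to 0.136).

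Targets of Nrf2, the other driver of Nqo1, were 19 measured of 20 listed. With UAB30 0 of 19 passed (median 0.17). With MeUAB30 3 rose and 1 fell (median 0.17), where 7.88% and 2.01% of all genes did. The rises were led by the carbonyl reductase Cbr1 (1.77-fold, adjusted p = 0.00383) and Gstp1 (1.55-fold, adjusted p = 0.0337). Gclc, the catalytic subunit of glutathione synthesis, fell by 0.94 on the log2 scale (adjusted p = 0.0238). With Targretin the exporter Abcc3 (2.22-fold, adjusted p = 0.000696) and the epoxide hydrolase Ephx1 (1.73-fold, adjusted p = 0.00546) rose and 0 fell (median 0.05). Abcc3 (-0.89, adjusted p = 0.0089) and Gclc (-1.15, adjusted p = 0.0274) were lower with MeUAB30 than with UAB30 (median 0.09). The Gclc and Gstp1 calls each depended on single arrays: Gclc against Control was lost without Control 1 or 4 or MeUAB30 1, 2 or 3, against UAB30 without UAB30 2 or 4 or MeUAB30 1, 2 or 3, and Gstp1 without Control 1, 3 or 4 or MeUAB30 2 or 4.

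Of the other glucuronosyltransferases, 10 measured of 17 listed, 0 passed with UAB30 in either direction (median 0.11, against 0.05 over all genes). With MeUAB30 1 rose and 3 fell (median -0.11), where 7.88% and 2.01% of all genes did. Ugt2a3 rose 1.88-fold (adjusted p = 0.00418), Ugt1a1, the bilirubin conjugating enzyme, fell by 0.52 (adjusted p = 0.0102) and Ugt2b17 by 0.98 (adjusted p = 0.0269). With Targretin Ugt1a1 (1.67-fold, adjusted p = 0.00167) and Ugt1a5 (1.73-fold, adjusted p = 0.00195) rose and Ugt2a3 fell by 1.01 (adjusted p = 0.00375; median 0.24). Ugt2b17 was also lower with MeUAB30 than with UAB30 (-1.27, adjusted p = 0.0209; median -0.20). Both Ugt2b17 calls were lost without MeUAB30 2 or 3, the first also without Control 1 or 2 and the second without UAB30 2 or 4. Exons common to the Ugt1a genes may limit how far Ugt1a1, Ugt1a5 and Ugt1a6 can be separated. Only probe sets annotated with 1 symbol were used, and whether any of them reads several Ugt1a genes was not tested.

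The relatives of Nqo1 and Aldh3a1, 9 measured of 11 listed, had 0 calls with UAB30 (median 0.22). With MeUAB30 2 of 9 rose and 0 fell (median 0.14), where 7.88% and 2.01% of all genes did. The second quinone reductase Nqo2 rose 2.14-fold (adjusted p = 0.000664) and the mitochondrial Aldh2 1.47-fold (adjusted p = 0.0334, lost without Control 1 or 4 or MeUAB30 2, 3 or 4). With Targretin Aldh1a1, which oxidises retinal to retinoic acid, rose 3.41-fold (adjusted p = 0.000413) and 0 fell (median 0.06). Between the analogs 0 of 9 passed (median -0.02).

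**Figure D4:**
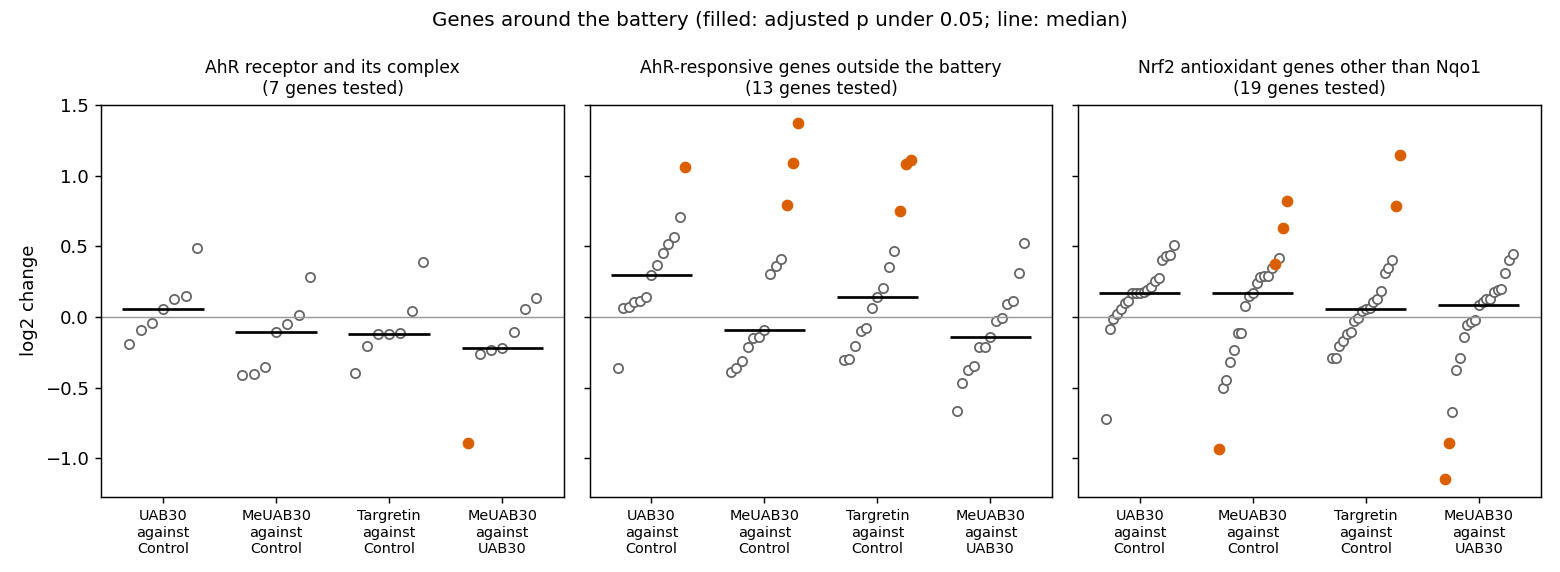
Log2 difference of every measured gene of the receptor complex (7 genes), of other AhR-responsive genes (13) and of Nrf2 targets (19) in the 4 comparisons, sorted within each, with the median as a line; filled points passed the adjusted threshold. The medians lie between -0.22 and 0.30, and Ahr is the filled point of the receptor complex.

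The genes whose pattern was most like that of Cyp1a1 were those with all 4 UAB30 arrays above all other 12 arrays, ranked by UAB30 minus the mean of the other 3 diets. In all, 16 of the 12156 genes (0.132%) had that pattern. Cyp1a1 led with a log2 difference of 5.64, followed by Cyp1b1 (1.52), Cyp1a2 (1.34) and Ugt1a6 (1.11), all members of the battery, and then by Myc (1.06), a growth regulator, and Ier2 (0.92), an immediate early gene. The gap between the lowest UAB30 array and the highest other array was 3.46 for Cyp1a1, 0.80 for Cyp1a2, 0.55 for Cyp1b1, 0.40 for Ugt1a6, 0.40 for Myc and 0.19 for Ier2.

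Myc, dim at 6.39 ± 0.21 in Control and 7.45 ± 0.27 in UAB30 (SD, n = 4 each), missed the threshold against Control (adjusted p = 0.0519) and against MeUAB30 (adjusted p = 0.0547). Ier2 missed both as well (adjusted p = 0.487 and 0.416), and its lowest value, 5.83, was on Targretin 2. Between the analogs Myc passed under 7 of the 10 other settings and Ier2 under 2 of them. The ranking is over 16 arrays and describes likeness of pattern only.

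**Figure D5:**
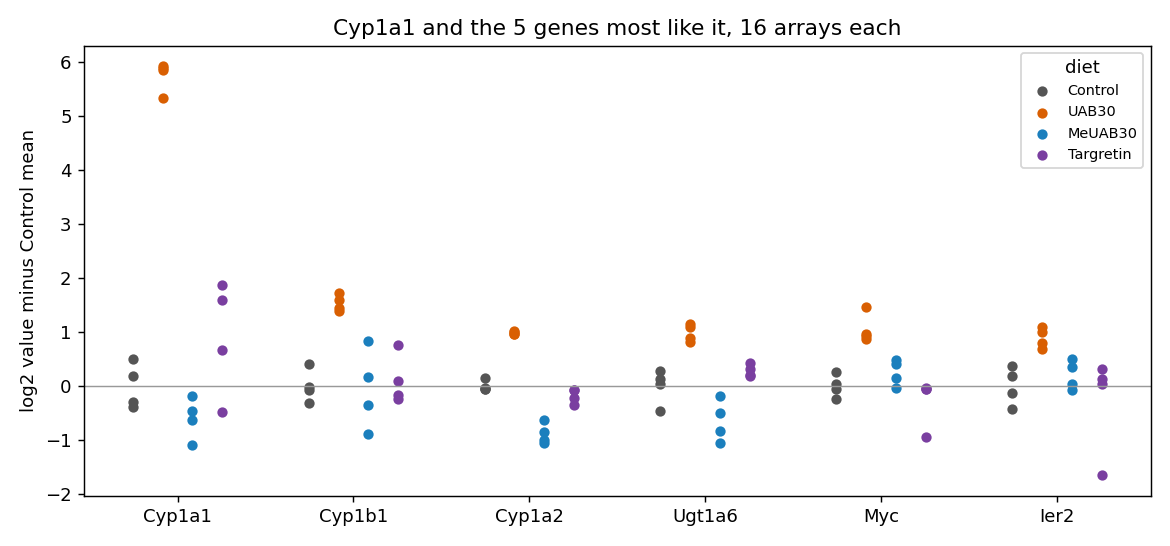
Log2 intensity minus the Control mean on every array for Cyp1a1 and the 5 genes that follow it in the ranking, in columns by diet, 1 point an array. For each gene the 4 UAB30 points lie above the other 12, by a gap of 3.46 for Cyp1a1 and of 0.19 to 0.80 for the other 5 genes.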

How the data were processed

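The authors deposited 1 linear intensity per probe set and array for 887828 probe sets on 16 arrays; per the submitters' processing notes the genome build is rn4, and how probes were summarised, background-corrected and normalized is not given in the sources used here. RNA was Trizol-extracted, column-purified and biotin-labelled, per the labels' protocols. Titles gave the groups and replicate numbers.

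From the intensity values, log2(intensity + 1) was computed, which shrinks changes of dim genes. The platform annotation named 177688 probe sets with 1 symbol, 2920 with several and 707220 with none; of 14903 symbols 3454 were updated and 56 kept as given. Named probe sets at or above the 75th percentile by mean (log2 6.01, intensity 63.6) were kept, 103692 of 12156 genes, and each gene was summarised by median polish. With limma 3.58.1 in R 4.3.3 a mean per diet was fitted over the 16 arrays, with 4 contrasts and Benjamini-Hochberg adjustment over all genes in each (threshold 0.05). The test was checked on simulated data. Over all genes the standard error of a log2 difference had a median of 0.166.

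The members and the gene lists were chosen with earlier results of these data known. Named outside the battery were Ahr and Arnt, up to 3 called genes of each list and comparison with the smallest adjusted p, and the 5 genes most like Cyp1a1. Tried as alternatives were another pseudocount (16), a filter at the 50th percentile or none, probe set means, quantile normalization, array weights, the intensity range as a covariate, a replicate block, 2-group fits, and fits without the 4 arrays of lowest correlation or without each array. Promoters came from RefSeq (GRCr8), and no coordinates of the files were used.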

Additional observations from a re-analysis of the deposited data

Results flagged for a closer look

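The array values of the 7 genes were searched for outliers in each of the 28 groups of 4 arrays with Dixon's test, and 2 groups held one, where chance gives about 1 in 20. In the UAB30 group the lowest Cyp1a1 value, 11.43 on UAB30 1, lay far below the other 3 (11.94 to 12.01), though above every array of the other diets. In the Control group the highest Cyp1a2 value, 12.20 on Control 2, lay above the other 3 (11.98 to 12.01), though below every UAB30 array.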

How the results depend on the processing

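The count of 4 genes of the battery lower with MeUAB30 than with UAB30 was the same under all 10 other settings and in all 16 fits without 1 array. Without 1 array the number of genes of the battery called was 2 to 5 with UAB30 (2 without Control 1, Control 4 or UAB30 1), 2 to 3 with MeUAB30 and 0 to 1 with Targretin. Over all genes it was 4 to 36 with UAB30, 634 to 1718 with MeUAB30, 172 to 402 with Targretin and 86 to 268 between the analogs, against 10, 1202, 265 and 169. Array weights gave 44, 2771, 761 and 1337 genes, the intensity range as a covariate 106, 3026, 1288 and 726, and the fit without Control 3, UAB30 3, MeUAB30 1 and Targretin 2 gave 31, 2446, 495 and 338. Array weights and that fit each called 1 gene of the battery with Targretin, Cyp1a1. With only the 2 groups compared, Targretin had 115 calls. Quantile normalization moved the share of UAB30 calls that were higher from 90% to 78.6%. With the covariate the higher share was 50% for UAB30, 47% for MeUAB30 (79.7% before) and 30.6% for Targretin (69.4% before); with array weights it was 65.9% for UAB30, 64.4% for MeUAB30 and 62.9% between the analogs (50.3% before), and without the 4 arrays 51.6% for UAB30 and 61.3% for MeUAB30. The cause was not tested for any of these.

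The Cyp1b1 call with UAB30, adjusted p = 0.0519, ranged from 0.000129 to 0.056 over the other settings and passed in 8 of 10, and from 0.0117 to 0.24 without 1 array, where it passed in 3 of 16. Its lowest values, 0.000129 with a filter at the median and 0.000225 without a filter, drew on probe sets under the brightness threshold of the main fit. Ugt1a6 was lost without a filter (adjusted p = 0.0508) and with 2 groups only (0.0601 with UAB30, 0.0766 with MeUAB30). Differences that missed the threshold passed under some settings for Ahr with MeUAB30 (3 of 10, and 1 of 16 without 1 array), Arnt with MeUAB30 (2 of 10), Myc with UAB30 (6 of 10, and 1 of 16) and between the analogs (7 of 10, and 2 of 16), and Ier2 between the analogs (2 of 10, and 1 of 16).

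Signs turned only for differences that passed nowhere. With a filter at the median, Aldh3a1 had 0.13 (MeUAB30 minus Control), 0.0591 (Targretin) and 0.0851 (MeUAB30 minus UAB30), Cyp1b1 0.45 (MeUAB30) and Ahrr 0.0686 (MeUAB30 minus UAB30). Without a filter the same 5 differences were 0.15, 0.15, 0.15, 0.15 and 0.0215. Cyp1b1 with MeUAB30 was 0.13 with array weights, 0.0457 with the covariate and 0.35 without the 4 arrays, where Aldh3a1 with Targretin was 0.0049. Without 1 array the range was -0.0247 to 0.18 for Aldh3a1 with UAB30, -0.36 to 0.22 for Cyp1b1 with MeUAB30, -0.0247 to 0.19 for Ahrr, -0.14 to 0.0383 for Aldh3a1 and -0.10 to 0.25 for Cyp1b1 with Targretin.

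With the replicate number as a block, 11, 1000, 209 and 136 genes passed, and Cyp1b1 passed with UAB30 (adjusted p = 0.0255); among the other genes Bhlhe40 with UAB30 (0.0538) and Targretin (0.0644) and Gsta2 with MeUAB30 (0.0698) did not. Same-numbered arrays deviated together by over 0.1 in 6 of 16 correlations (-0.504 to 0.574). In 3 of 16 cases an array correlated best with its own number. All correlations of number 4 were over 0.1, and all those of number 2 were negative. These values cannot show whether arrays of the same number shared a batch. Besides the losses given with each gene, the fit of the 2 groups lost Ephx1, Gsta2 and Bhlhe40 with Targretin and Aldh2 with MeUAB30, a filter at the median or none lost Cd36 with Targretin and Gstp1 and Gsta2 with MeUAB30, probe set means lost Gstp1 and Gsta2 with MeUAB30, and the fit without the 4 arrays lost Bhlhe40 with UAB30 and Gsta2 with MeUAB30. Depth is not defined for intensities; dim signal limits Ahrr, Aldh3a1 and Cyp1b1 in every diet and Cyp1a1 in all but UAB30.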
